A study of Mus musculus with 9 samples.

Results

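Transcripts of 10 Polycomb group genes were followed through reprogramming of mouse spermatogonial stem cells (SSC). The genes were Ezh1, Ezh2, Eed, Suz12, Jarid2, Mtf2, Phf19, Rnf2, Cbx2 and Cbx7. Each was found by the position of its locus in the deposited expression table on the GRCm38 build, not by the printed gene name, and a gene with several loci was read from the one with the highest mean. All 10 were found, among 11033 genes that could be named in this way. RNA-seq had been performed on 3 libraries each of SSC, SSCiPSC and fiPSC. All cells came from mice of the strain Gt(ROSA)26Sortm1(rtTA*M2)Jae Col1a1tm3(tetO-Pou5f1,-Sox2,-Klf4,-Myc)Jae/J, so every group, SSC included, carries the reprogramming factors under a promoter that doxycycline switches on. SSC were primary cells at passage 0, enriched with magnetic beads for the surface receptor Gfra1 from testes of pups in the first week after birth. SSCiPSC and fiPSC were induced pluripotent stem cell lines made from SSC and from male fetal fibroblasts. Each line grew from a picked colony and was therefore clonal, and iPSC were purified for the surface antigen SSEA1 before RNA extraction. The labels give passages 10 to 11 and a medium with LIF and doxycycline for iPSC, whereas the study's methods give later passages without doxycycline. The study calls its libraries biological samples. Whether the 3 of SSC came from separate animals is not given in the sources used here. The study's methods also do not say whether the 3 RNA-seq libraries of each iPSC type came from separate lines. The p-values therefore measure the spread between these libraries only.

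Polycomb proteins keep developmental genes silent through chemical marks on histones. Polycomb repressive complex 2 (PRC2) methylates lysine residues of histone H3 (the mark H3K27me3) through the enzyme EZH2 or its relative EZH1, which work only when bound to EED and SUZ12. PRC1 is built around the RING proteins, which attach ubiquitin to histone H2A, and in its canonical form it reads the mark of PRC2 through a CBX protein. In embryonic stem cells the canonical complex is known to use CBX7, whereas CBX2 and CBX8 are associated with differentiated cells, and EZH2 with dividing cells.

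The RefSeq promoter table (GRCm38.p6) had an entry for 9 of the 10 genes. The start of the entry lay 38473 bp from the annotated gene start for Cbx7, 1300 bp for Jarid2 and 311 bp for Ezh2. For the others the distance was at most 50 bp. The 250 bases before the start were searched on both strands for GCGGGAA, the core of the E2F motif, and for CCAAT, the core of the NF-Y motif, which do not overlap each other. GCGGGAA was found in 2 of the 9 promoters and in 3.82% of all 32851 entries, and CCAAT in 4 of the 9 and in 33.8% of all. The other motifs searched were GGGCGG (Sp1), present in 6 of the 9 and in 32.7% of all, and the E-box CACGTG, present in none of the 9 and in 6.02% of all. Sequences are shown for the methyltransferase gene that rose (Ezh2), for its relative that did not (Ezh1) and for the pair of genes with the E2F letters (Suz12 and Phf19). They run 5′ to 3′ in the direction of the gene, without annotated exons, with the letters of either core motif, read on either strand, in capitals. Such a match is a description of the letters only. The promoters with CCAAT were those of Suz12 and of Ezh2, Jarid2 and Cbx7, the genes with a distant start. For Ezh2 the 250 bases held 3 CCAAT matches, of which the stretch shown, which lies within the annotated gene, holds 2.
Ezh2, chr6:47595059-47595183, minus strand: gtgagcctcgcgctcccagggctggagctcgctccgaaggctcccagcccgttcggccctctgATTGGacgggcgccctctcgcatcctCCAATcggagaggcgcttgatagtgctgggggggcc
Ezh1, chr11:101226464-101226713, minus strand: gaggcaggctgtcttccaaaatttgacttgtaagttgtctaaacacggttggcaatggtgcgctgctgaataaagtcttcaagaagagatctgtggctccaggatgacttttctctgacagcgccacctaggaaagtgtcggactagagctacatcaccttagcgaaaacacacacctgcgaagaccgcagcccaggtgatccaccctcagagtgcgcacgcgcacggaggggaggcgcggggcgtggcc
Suz12, chr11:79992856-79993105, plus strand: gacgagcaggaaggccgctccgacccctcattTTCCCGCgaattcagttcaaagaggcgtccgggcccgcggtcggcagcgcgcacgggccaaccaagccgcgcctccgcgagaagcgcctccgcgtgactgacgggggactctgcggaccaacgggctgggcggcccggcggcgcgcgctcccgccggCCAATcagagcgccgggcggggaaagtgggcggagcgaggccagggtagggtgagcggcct
Phf19, chr2:34914027-34914226, minus strand: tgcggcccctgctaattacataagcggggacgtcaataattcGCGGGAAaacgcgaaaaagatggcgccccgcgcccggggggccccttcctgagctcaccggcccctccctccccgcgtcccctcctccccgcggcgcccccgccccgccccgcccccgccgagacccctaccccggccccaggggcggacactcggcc

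Expression is given as FPKM, the fragments of a transcript per kilobase of its length, scaled to the size of the library, which allows levels of different genes to be compared. The libraries differed in depth. From the lowest FPKM values, 1 fragment per kilobase was worth 0.566, 0.216 and 0.723 FPKM in SSC 1, 2 and 3 and 0.0569 to 0.0755 FPKM in the 6 iPSC libraries, so a fragment weighed more in SSC. Fewer fragments therefore stood behind the SSC values: for Phf19, the least abundant gene, about 9, 14 and 6 in SSC 1, 2 and 3 against 140 to 358 in iPSC, and for Cbx7 about 52, 99 and 20 against 1735 to 2277.

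The SSC libraries also differed in their content of other cells. Summed over the 5 mast cell markers with a locus, SSC 1, 2 and 3 had 103, 386 and 1070 FPKM. Macrophage markers (7 with a locus) summed to 48.2, 15.7 and 155 FPKM, so SSC 3 stood apart on both lists. Germ line markers were present in every SSC library: Dazl, an RNA-binding protein of germ cells, was the most abundant of them (mean 210 FPKM), and the receptor Gfra1 used for sorting had 37.7, 34.1 and 23.9 FPKM in SSC 1, 2 and 3 and at most 0.171 in iPSC. Clu, a secreted protein abundant in Sertoli cells, was nevertheless higher than either in SSC (mean 632 FPKM). In such bulk samples, fewer cells of a type and less RNA per cell cannot be told apart.

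Most of the 10 genes were higher in SSCiPSC than in SSC. Against SSC, 8 of the 10 genes rose in SSCiPSC, Cbx2 fell and Ezh1 did not pass the test (limma on log2(FPKM + 1), adjusted p below 0.05). Of all 36544 loci tested, 50.3% passed, 26.2% as higher and 24.1% as lower. With 1 locus per named gene the share was 69.7%, of which 37.9% higher and 31.7% lower. The libraries of the groups did not overlap in the same 9 genes, 8 higher and 1 lower, beside 59.8% of all loci (31.1% higher, 28.7% lower). The median difference of the 10 genes was 1.57 on the log2 scale, beside 0.11 for all loci. Without SSC 3, the library with the most mast cell and macrophage RNA, 7 genes rose, Cbx2 fell, and Phf19 lost its call (adjusted p = 0.0508 by limma). In that fit 29.1% of loci were higher and 14.9% lower, since a locus above 1 FPKM in SSC alone then fails the filter.

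**Figure D1:**
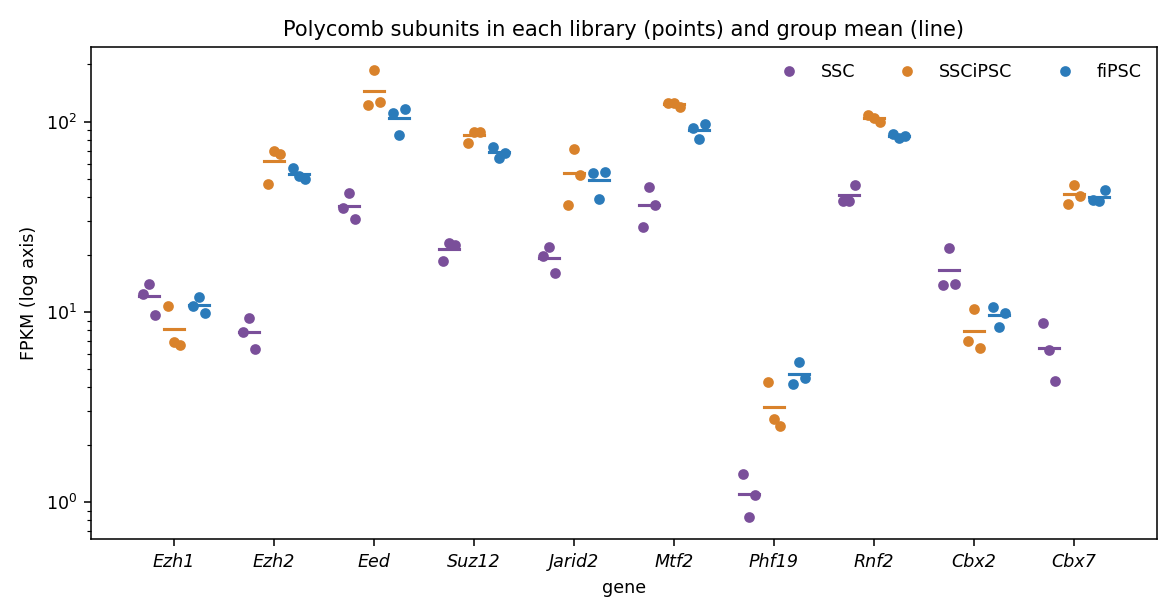
FPKM (log axis) of the 10 Polycomb genes in each of the 9 libraries, with points for libraries, lines for group means and a colour per group. Ezh2, Eed, Suz12, Jarid2, Mtf2, Phf19, Rnf2 and Cbx7 are higher in every iPSC library than in every SSC library, Cbx2 is lower in all 6, and Ezh1 overlaps.

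The H3 methyltransferases exchanged places. Ezh2 (chr6:47530154-47595328, minus strand, nearly the whole gene) had 7.85, 9.27 and 6.38 FPKM in libraries 1, 2 and 3 of SSC, 47.1, 70.5 and 67.8 in those of SSCiPSC and 56.9, 51.7 and 49.7 in fiPSC. The lowest iPSC library was thus above the highest SSC library by a wide margin. The rise in SSCiPSC was 2.82 ± 0.22 (log2, SE; adjusted p = 0.000206 by limma), the largest of the 10, and the ratio of the group means was 7.89.

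Ezh1 (chr11:101190992-101226428, minus strand, 99.9% of the gene) encodes the less active enzyme, which is typical of resting and differentiated cells. It had 12.5, 14.1 and 9.62 FPKM in libraries 1, 2 and 3 of SSC, 10.8, 6.90 and 6.65 in those of SSCiPSC and 10.8, 11.99 and 9.85 in fiPSC. The groups overlapped, since SSCiPSC 1 lay within the range of SSC. The difference was -0.53 in SSCiPSC against SSC (95% interval -1.13 to 0.07, adjusted p = 0.123 by limma) and -0.13 in fiPSC against SSC (-0.56 to 0.31, adjusted p = 0.592), and it turned to 0.10 under median-ratio scaling in the latter comparison.

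The balance of the pair was similar in the 3 SSC libraries. Behind the SSC values stood about 93, 273 and 56 fragments for Ezh1 and 39, 119 and 25 for Ezh2 in SSC 1, 2 and 3. The SE of the ratio takes in the spread between libraries and not the error of counting so few fragments. Ezh1 made up 61.4%, 60.3% and 60.1% of the summed FPKM of Ezh1 and Ezh2 in SSC 1, 2 and 3, 18.6%, 8.91% and 8.94% in SSCiPSC and 15.9%, 18.8% and 16.5% in fiPSC. The sum itself rose from a mean of 19.9 FPKM in SSC to 69.9 in SSCiPSC and 63.6 in fiPSC. As a log2 ratio of Ezh1 over Ezh2, the difference from SSC was -3.35 ± 0.38 (SE) in SSCiPSC and -2.74 ± 0.09 in fiPSC, with no overlap of libraries in either. A two-sided exact permutation test gave p = 0.1 for each, the smallest p that 3 against 3 libraries allow, and 0.18 after adjustment over the 9 ratio tests made.

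Eed and Suz12, the core partners without which the enzymes are inactive, rose together. Eed (chr7:89954755-89981478, minus strand) reads the methyl mark; it had 35.1, 42.1 and 30.7 FPKM in libraries 1, 2 and 3 of SSC, 122, 188 and 127 in those of SSCiPSC and 112, 85.6 and 116 in fiPSC. Suz12 (chr11:79993525-80034438, plus strand), the scaffold of the complex, had 18.5, 23.1 and 22.5 FPKM across SSC, 77.0, 88.7 and 88.5 in SSCiPSC and 74.0, 64.5 and 68.8 in fiPSC. In both genes the iPSC libraries did not overlap SSC. The rises in SSCiPSC against SSC were almost equal, 1.97 ± 0.21 for Eed and 1.94 ± 0.14 for Suz12 (log2, SE; adjusted p = 0.000564 and 0.000183 by limma). Of the stretches of 50 bases in the longest coding transcript, 10.5% of Eed and 3.03% of Suz12 also occur in transcripts of another gene, whose reads could have been counted here.

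The accessory subunits that bring PRC2 to chromatin rose less evenly. Mtf2 (chr5:108064884-108104531, plus strand, 89.7% of the gene), a Polycomb-like protein that binds CpG-rich DNA, had 28.0, 45.3 and 36.3 FPKM in libraries 1, 2 and 3 of SSC, 126, 125 and 119 in those of SSCiPSC and 92.1, 81.1 and 97.4 in fiPSC. SSCiPSC were the highest group and did not overlap either of the others. The rise over SSC was 1.75 ± 0.19 in SSCiPSC and 1.30 ± 0.19 in fiPSC (log2, SE; adjusted p = 0.000539 and 0.00177 by limma). Tmed5 shares most of the 8.68% of Mtf2 stretches that occur in other genes.

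Jarid2 (chr13:44729788-45002029, plus strand) helps to recruit PRC2 and to activate it. It had 19.8, 21.9 and 16.1 FPKM in libraries 1, 2 and 3 of SSC, 36.3, 72.2 and 52.4 in those of SSCiPSC and 54.0, 39.3 and 54.5 in fiPSC. SSCiPSC libraries spread widely, with 1 lowest and 2 highest, yet all iPSC libraries were above SSC. The rise was 1.39 ± 0.27 in SSCiPSC and 1.31 ± 0.18 in fiPSC (log2, SE; adjusted p = 0.00549 and 0.00154 by limma). The assembled interval runs 80386 bp past the annotated end of the gene, so the value may hold reads from beyond it.

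Phf19 (chr2:34893679-34915002, minus strand) encodes another Polycomb-like protein and was the lowest of the 10 in every group. It had 1.40, 0.83 and 1.08 FPKM in libraries 1, 2 and 3 of SSC, 4.27, 2.74 and 2.51 in those of SSCiPSC and 4.15, 5.44 and 4.496 in fiPSC. It was higher in all 6 iPSC libraries, but the SSC values rest on few fragments. The rise was 0.97 ± 0.27 in SSCiPSC, a call that was lost when SSC 2, SSC 3 or any SSCiPSC library was left out (adjusted p from 0.0508 to 0.0994 by limma), and 1.44 ± 0.23 in fiPSC (adjusted p = 0.00267). On the log2(FPKM + 1) scale the changes of so low a gene are understated: the ratio of the mean FPKM was 2.87 in SSCiPSC.

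The log2 ratio of Phf19 over Mtf2 averaged -4.14 in SSC, -4.92 in SSCiPSC and -4.00 in fiPSC. It differed by 0.92 ± 0.23 (SE) between fiPSC and SSCiPSC, without overlap (two-sided exact permutation test, p = 0.1, adjusted 0.18), whereas the libraries overlapped in the comparisons with SSC (p = 0.2 and 1, adjusted 0.257 and 1).

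Rnf2, which encodes the main ubiquitin ligase of PRC1 (RING1B), rose less than Ezh2, Eed and Suz12 on the log2 scale, a difference that was not tested. Its locus (chr1:151470997-151487365, minus strand) covers 38.1% of the gene's span. It had 38.4, 38.2 and 46.2 FPKM in libraries 1, 2 and 3 of SSC, 109, 105 and 99.1 in those of SSCiPSC and 85.8, 82.0 and 84.4 in fiPSC. The libraries within a group lay close together, and the 3 groups did not overlap. The rise was 1.33 ± 0.13 in SSCiPSC and 1.03 ± 0.11 in fiPSC (log2, SE; adjusted p = 0.000393 and 0.000541 by limma). After quantile normalization these values were 0.68 and 0.50, still past the threshold.

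The chromobox readers moved in opposite directions. Cbx7 (chr15:79915710-79971231, minus strand, the whole gene) had 8.72, 6.31 and 4.34 FPKM in libraries 1, 2 and 3 of SSC, 37.1, 46.3 and 40.9 in those of SSCiPSC and 38.6, 38.3 and 43.6 in fiPSC. Every iPSC library was far above SSC, and the rise of 2.55 ± 0.25 in SSCiPSC was second to that of Ezh2 (log2, SE; adjusted p = 0.000402 by limma). In fiPSC it was 2.50 ± 0.23 (adjusted p = 0.00034).

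Cbx2 (chr11:119023107-119031271, plus strand, 98.3% of the gene), whose product compacts chromatin and is needed for testis development, had 13.8, 21.7 and 14.0 FPKM in libraries 1, 2 and 3 of SSC, 7.05, 10.3 and 6.46 in those of SSCiPSC and 10.6, 8.32 and 9.88 in fiPSC. All iPSC libraries lay below the lowest SSC library, by a small margin. The fall was -0.96 ± 0.26 in SSCiPSC and -0.70 ± 0.21 in fiPSC (log2, SE; adjusted p = 0.0216 and 0.0342 by limma). Both calls were lost under median-ratio scaling (adjusted p = 0.071 and 0.135) and without SSC 2 (adjusted p = 0.0599 and 0.0528), the library with the highest value. The first was also lost without SSCiPSC 1 or 3, and the second when any 1 of the fiPSC libraries was left out.

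The log2 ratio of Cbx7 over Cbx2 separated iPSC from SSC in every library. It was -0.61, -1.63 and -1.49 in SSC 1, 2 and 3, 2.24, 2.06 and 2.49 in SSCiPSC and 1.77, 2.08 and 2.03 in fiPSC. Cbx2 was thus the more abundant in SSC and Cbx7 in iPSC. The difference from SSC was 3.51 ± 0.35 (SE) in SSCiPSC and 3.20 ± 0.34 in fiPSC (two-sided exact permutation test, p = 0.1 each, adjusted 0.18).

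**Figure D2:**
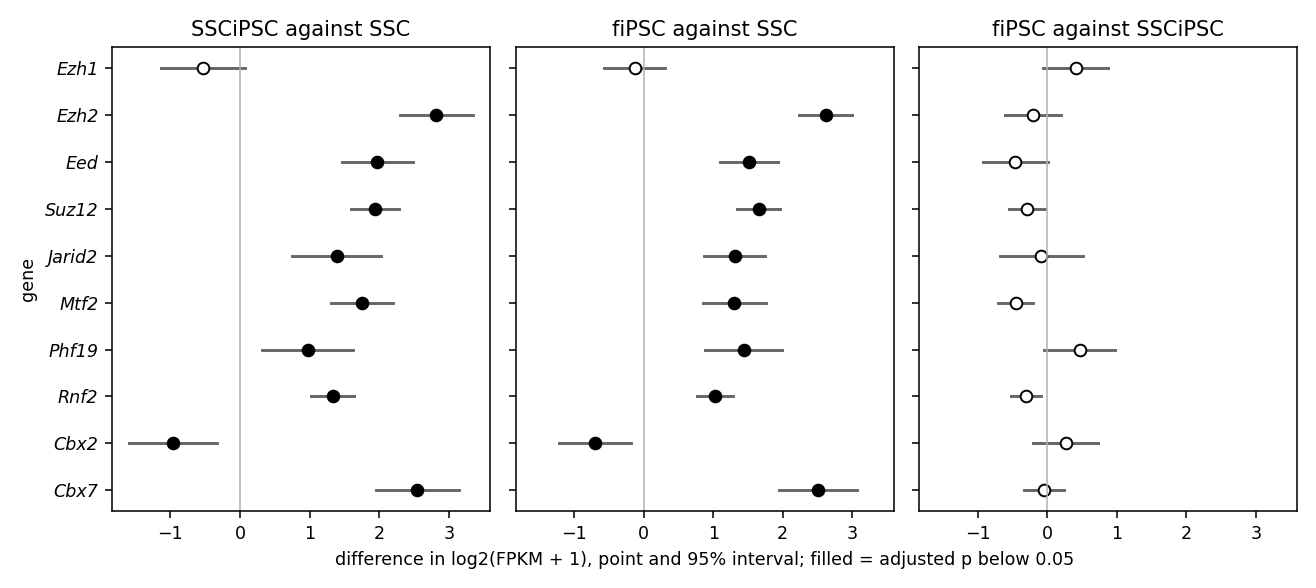
Difference in log2(FPKM + 1) of the 10 genes (points) with 95% intervals (lines) in the 3 comparisons, filled where the adjusted p of limma was below 0.05. The pattern against SSC runs from -0.96 (Cbx2) to 2.82 (Ezh2) for SSCiPSC, and no point is filled for fiPSC against SSCiPSC.

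The comparison of fiPSC with SSC uses the same SSC libraries, so it is not independent of the preceding one. In fiPSC against SSC, 8 of the 10 genes rose, Cbx2 fell and Ezh1 did not pass, beside 51.8% of 38007 loci (28.0% higher, 23.7% lower) and 71.7% of named genes taken at 1 locus each (38.7% higher, 33.0% lower). The libraries of these 9 genes did not overlap (8 higher, 1 lower), which was so at 61.6% of all loci, at 33.1% as higher and at 28.5% as lower. The median difference was 1.37 on the log2 scale, beside 0.17 for all loci. Ezh2 (2.62 ± 0.16) and Cbx7 had the largest rises, followed by Suz12 (1.65 ± 0.12) and Eed (1.51 ± 0.17; log2, SE). Without SSC 3, the counts were again 8 and 1, beside 32.4% of loci higher and 17.2% lower.

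The iPSC types were compared with each other. They differ in the cell of origin and in the stage of its donors, fetuses for fiPSC and pups for SSCiPSC, which cannot be told apart. None of the 10 genes passed the test, and of 33948 loci 23 did (0.0678%; 0.0236% as higher and 0.0442% as lower in fiPSC; limma, adjusted p below 0.05). With 1 locus per named gene the share was 0.651% (0.415% higher, 0.236% lower). At an unadjusted p below 0.05, Suz12, Mtf2 and Rnf2 were lower in fiPSC, 3 of 10, beside 11.7% of all loci. The differences were -0.29 (95% interval -0.55 to -0.03) for Suz12, -0.45 (-0.70 to -0.20) for Mtf2 and -0.31 (-0.53 to -0.09) for Rnf2, with adjusted p of 0.377, 0.232 and 0.309.

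In 4 genes the groups did not overlap, always with fiPSC lower: these 3 and Eed (-0.46, interval -0.93 to 0.01). Such a lack of overlap in this direction was found at 9.23% of all loci, in the other at 9.41% and in either at 18.6%. For the other 6 genes the libraries of the iPSC groups overlapped. Their intervals reached from -0.68 (Jarid2) to 0.97 (Phf19). Ezh1 was 0.41 higher in fiPSC (-0.07 to 0.88), Ezh2 -0.20 (-0.60 to 0.19) and Cbx7 -0.04 (-0.33 to 0.25).

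The order of the levels changed between the cell types. In SSC, Rnf2 (mean 40.9 FPKM), Mtf2 (36.5) and Eed (36.0) were the most abundant, and neighbours among these did not differ beyond their spread. Suz12 (21.4), Jarid2 (19.3), Cbx2 (16.5) and Ezh1 (12.1) followed with overlapping neighbours, and then Ezh2 (7.83), Cbx7 (6.46) and Phf19 (1.11). In SSCiPSC the order was Eed (145), Mtf2 (123), Rnf2 (104), Suz12 (84.8), Ezh2 (61.8), Jarid2 (53.6), Cbx7 (41.4), Ezh1 (8.11), Cbx2 (7.95) and Phf19 (3.17). fiPSC had the same order of means. In both iPSC types the libraries of Eed and Mtf2, of Ezh2 and Jarid2, of Jarid2 and Cbx7 and of Ezh1 and Cbx2 overlapped, and between Cbx7 and Ezh1 there was a clear gap.

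The remaining PRC2 genes did not move as a group. Of 8 listed, 6 had a locus of their own and were tested; 3 rose and 2 fell in SSCiPSC against SSC, with a median of -0.05 on the log2 scale, beside the 69.7% of named genes that passed. Epop, an accessory factor found in embryonic stem cells that links PRC2 to elongin, had 1.64, 3.29 and 2.88 FPKM in SSC 1, 2 and 3, against 12.6, 41.6 and 22.1 across SSCiPSC (2.75 ± 0.44, adjusted p = 0.00262 by limma). The histone chaperones Rbbp4 and Rbbp7, shared with other complexes, rose by 1.24 ± 0.12 and 0.67 ± 0.13, but after quantile normalization neither passed and Rbbp7 turned to -0.29. Phf1, the third Polycomb-like gene, fell by -0.81 ± 0.26, a call lost under median-ratio scaling (adjusted p = 0.1), quantile normalization (0.0912) and without SSC 3 (0.0969). Ezhip, a germ line inhibitor of PRC2 read here from a locus without strand, had 3.76, 4.42 and 2.22 FPKM across SSC against 0.74, 0.41 and 1.28 in SSCiPSC (-1.29 ± 0.32, adjusted p = 0.0147). In fiPSC against SSC the counts were again 3 and 2, beside the 71.7% of named genes that passed. Aebp2 and Lcor were not analysed here because their loci are shared with other genes.

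The other PRC1 genes mostly fell. Of 24 listed, 18 were tested. Against SSC, 5 rose and 10 fell in SSCiPSC, with a median of -1.39, beside 37.9% and 31.7% of named genes. The counts for fiPSC were 5 and 11, with a median of -1.29, beside 38.7% and 33.0%. Both counts of falls include Cbx8, whose direction the filter fixed. They also include genes read from a locus over part of the gene's span, such as Auts2 (3.5%), E2f6 (53.6%) and Scmh1 (55.7%). With SSC 3 left out, 5 rose and 9 fell in SSCiPSC among 17 tested. The largest rises in SSCiPSC were those of Pcgf6 (1.91 ± 0.19), Pcgf2 (1.86 ± 0.30) and L3mbtl2 (1.73 ± 0.25; adjusted p = 0.000447, 0.0027 and 0.00171 by limma). Pcgf6 and L3mbtl2 belong to a variant PRC1 that represses germ line genes in embryonic stem cells, and Pcgf2 (Mel18) to the canonical complex. Among these 18, the largest differences downward were those of Cbx8 (-3.01 ± 0.29), Scml2 (-2.86 ± 0.24) and Phc2 (-2.44 ± 0.25; adjusted p = 0.000254 for Scml2 and 0.000472 for Phc2). Cbx8 passed the filter through SSC alone, which fixed its direction, so its value is a description.

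Cbx8, a paralogue of Cbx7 and Cbx2, had 8.47, 14.6 and 12.3 FPKM in SSC 1, 2 and 3 and at most 0.921 in any iPSC library. It was therefore above 8 FPKM in all SSC libraries and below 1 FPKM in all iPSC libraries. Scml2, a germ line Polycomb protein, had 59.3, 67.1 and 40.2 FPKM across SSC against 6.49, 5.51 and 8.004 in SSCiPSC. Phc2, a polyhomeotic protein of canonical PRC1, had 37.9, 34.3 and 34.6 FPKM across SSC against 3.80, 7.91 and 6.09 in SSCiPSC. Ring1, Bmi1, Pcgf1, Cbx6, Rybp and Mga, which lacked a locus of their own, were not analysed here.

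Among Cbx2, Cbx7 and Cbx8, a set chosen after its values were seen, the makeup of the sum changed more than its size. Together they had 31.0, 42.6 and 30.7 FPKM in libraries 1, 2 and 3 of SSC, 44.9, 57.2 and 47.7 in those of SSCiPSC and 50.2, 47.2 and 54.1 in fiPSC. Cbx7 held 28.1%, 14.8% and 14.1% of this sum in SSC, 82.6%, 80.9% and 85.7% in SSCiPSC and 77.0%, 81.1% and 80.6% in fiPSC. The share of Cbx8 went from a mean of 33.9% in SSC to 1.14% in SSCiPSC, and that of Cbx2 from 47.1% to 15.8%. The Cbx8 locus covers 58.2% of the gene's span.

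Other paralogue sets were likewise chosen after their values were seen. Among Pcgf2, Pcgf3, Pcgf5 and Pcgf6, which define the kinds of PRC1, the mean share of Pcgf5 was 37.8% in SSC and 4.31% in SSCiPSC, and that of Pcgf6 17.8% and 48.8%. Among the polyhomeotic genes Phc1, Phc2 and Phc3, Phc1 held 49.5% of the sum in SSC and 92.2% in SSCiPSC, while Phc2 held 40.6% and 4.86%. The Phc2 locus covers 48.6% of the gene's span. fiPSC had similar means to SSCiPSC, with 5.54% for Pcgf5, 47.0% for Pcgf6 and 91.8% for Phc1. These shares are descriptions, without a test.

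**Figure D3:**
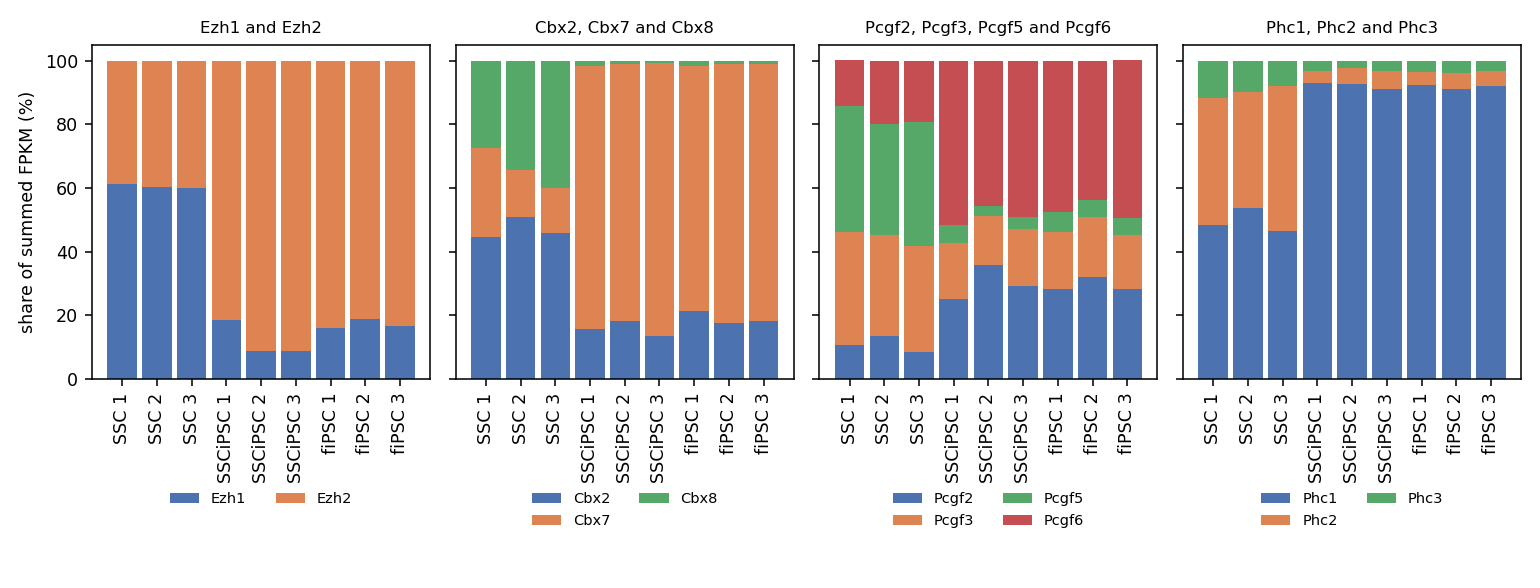
Share (%) of the summed FPKM held by each gene of 4 paralogue sets, stacked per library, in the 9 libraries. Ezh1 holds about 60% of its pair in SSC and less than 20% in iPSC, and Cbx7 goes from at most 28.1% to at least 77.0% of its set.

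**Figure D4:**
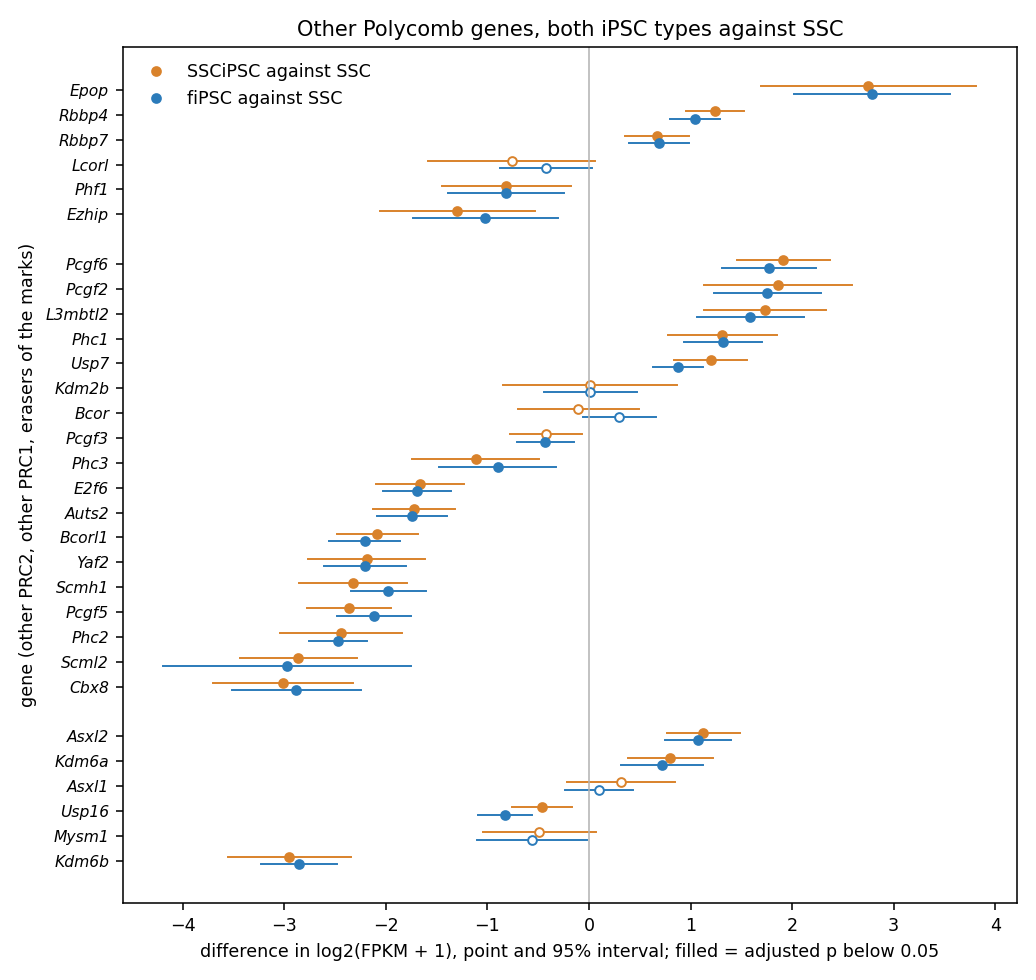
Difference in log2(FPKM + 1) with 95% intervals of the other PRC2, other PRC1 and mark-erasing genes, for SSCiPSC and fiPSC against the same SSC libraries, filled where the adjusted p of limma was below 0.05. Cbx8, Scml2 and Kdm6b lie lowest, Epop, Pcgf6 and Pcgf2 highest.

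Of 9 genes listed for enzymes that remove Polycomb marks and their partners, 6 were tested; 2 rose and 2 fell in SSCiPSC against SSC, and 2 rose and 2 fell in fiPSC. These counts are near the shares of all named genes that passed, 69.7% and 71.7%. Kdm6b (JMJD3), an H3K27 demethylase that responds to signals, had 54.3, 45.8 and 56.0 FPKM in libraries 1, 2 and 3 of SSC, 4.03, 8.41 and 5.75 in those of SSCiPSC and 5.23, 6.92 and 6.87 in fiPSC. The locus covers 51.3% of the gene's span, and the fall was -2.95 ± 0.25 in SSCiPSC (log2, SE; adjusted p = 0.000269 by limma). Its relative Kdm6a (UTX) rose by 0.80 ± 0.17, and Asxl2, a partner of the H2A deubiquitinase, by 1.12 ± 0.15 (adjusted p = 0.00892 and 0.00123). Usp16, another H2A deubiquitinase, fell by -0.46 ± 0.12 (adjusted p = 0.0193), a call lost under median-ratio scaling (adjusted p = 0.199) and without SSC 3 (0.0528).

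Genes known as Polycomb targets in embryonic stem cells were low in iPSC. Of 20 listed, 14 had a locus and 7 passed the filter on low values (1 FPKM or more in 3 libraries), with Gata4, Gata6 and Lhx2 passing through SSC alone, which fixed their direction. Of the 7, 1 rose and 5 fell in SSCiPSC against SSC, beside 37.9% and 31.7% of named genes. The same counts held for fiPSC against SSC, beside 38.7% and 33.0%. In that comparison the gene T also passed through SSC alone (at most 0.634 FPKM in fiPSC), so its fall there was fixed too. Cdkn2a, the locus of the cell cycle inhibitors p16 and p19 that Polycomb represses in dividing cells, had 11.4, 12.4 and 7.84 FPKM in SSC 1, 2 and 3, against 1.08, 0.56 and 1.21 across SSCiPSC (-2.56 ± 0.28, adjusted p = 0.000639 by limma). Gata4, also a Sertoli cell gene, differed most (-4.17 ± 0.24), with 18.7, 18.1 and 20.2 FPKM in SSC and at most 0.351 in SSCiPSC. Lhx2 differed by -2.38 ± 0.33. Eomes, a regulator of early lineages, rose by 0.94 ± 0.29 (adjusted p = 0.0349) and did not pass in fiPSC (0.68 ± 0.28, adjusted p = 0.0846). Without SSC 3 the rise of Eomes was lost in SSCiPSC too (0.76, adjusted p = 0.0776 by limma), and of the 4 genes of the list then tested Cdkn2a alone passed.

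Proliferation genes and markers of testicular cells moved with the same comparison. All 12 proliferation genes tested rose in SSCiPSC against SSC (11 after quantile normalization, where Mki67 did not pass), with a median of 2.28 on the log2 scale and beside 37.9% of named genes. They were led by Rrm2 (4.92 ± 0.23), a subunit of ribonucleotide reductase, the mitotic kinase Cdk1 (3.32 ± 0.18) and its cyclin Ccnb1 (2.97 ± 0.14; adjusted p = 5.53e-05, 7.79e-05 and 5.53e-05 by limma). Their summed level was 346, 431 and 358 FPKM in libraries 1, 2 and 3 of SSC, 2027, 1980 and 2009 in those of SSCiPSC and 1771, 1738 and 1791 in fiPSC. The summed level of the 10 Polycomb genes was 184, 223 and 187 FPKM across SSC, 576, 715 and 610 in SSCiPSC and 539, 468 and 539 in fiPSC, so the proliferation list changed by the larger ratio. Its part in the Polycomb result was not tested.

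Sertoli markers (8 of 11 with a locus) summed to 1328, 1364 and 1063 FPKM in SSC 1, 2 and 3 and to 23.8 to 36.8 in iPSC, with Cst12 and Cst9 at 0 in all iPSC and Inhbb the most abundant in SSCiPSC (mean 20.9). Leydig markers (4 of 8), led by Cyp11a1, summed to 171, 154 and 269 FPKM in SSC and to at most 0.742 in iPSC, with Lhcgr at 0 in all iPSC. Mast cell markers (5 of 6), led in SSC by Tpsab1, were at most 0.284 FPKM in sum in iPSC, with Tpsab1 and Mcpt4 at 0 in all 6.
Markers of peritubular myoid cells (5 of 7), led by Acta2, summed to 84.9 to 115 FPKM in SSC and 10.3 to 14.1 in iPSC. Macrophage markers were led by C1qa in SSC and Cd68 in SSCiPSC, with 8.81 to 14.5 FPKM in sum in iPSC. Endothelial markers (6 of 6), led by Pecam1, which pluripotent cells also express, spanned 56.8 to 117 FPKM across SSC and 83.4 to 127 across iPSC, with Emcn at 0 in all iPSC. Fibroblast or feeder markers (11 of 11), led by Vim in SSC and SSCiPSC, spanned 408 to 839 FPKM across SSC and 276 to 462 across iPSC.

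RNA of Sertoli, Leydig and mast cells was therefore part of the SSC values and nearly absent from iPSC. The peritubular myoid sum was also higher in every SSC library than in any iPSC library. Endothelial and fibroblast sums overlapped between SSC and iPSC, and the macrophage sum of SSC 2 (15.7 FPKM) was close to those of iPSC. In SSCiPSC these sums were led by Pecam1, Vim and Cd68, and other markers of the lists were lower than in SSC. Of 6 endothelial markers tested 4 fell and 1 rose, and of 11 fibroblast or feeder markers 5 fell and 1 rose. Of 6 macrophage markers 4 fell and 0 rose, beside 31.7% lower and 37.9% higher of named genes. The endothelial and macrophage falls passed the filter through SSC alone, which fixed their direction. The part of testicular somatic RNA in each difference from SSC was not tested. Germ line markers (14 of 14) summed to 787, 954 and 650 FPKM in SSC and 380 to 666 in iPSC, where Etv5 was the most abundant. Of these 14, 4 rose and 8 fell in SSCiPSC, beside 37.9% and 31.7% of named genes. After quantile normalization 2 rose (Etv5 and Kit) and 9 fell, and without SSC 3, 2 rose and 6 fell among 11 tested. Gfra1, Ret and Zbtb16, among the 8 that fell, passed the filter through SSC alone, which fixed their direction. All 9 pluripotency markers tested rose in SSCiPSC (8 after quantile normalization, where Klf4 did not pass), beside 37.9% of named genes. Pou5f1 was the most abundant in iPSC (mean 733 FPKM in SSCiPSC) and Klf4 in SSC (44.2), and Nanog and Fgf4 were at 0 in all SSC. Nanog, Fgf4, Esrrb, Tdgf1 and L1td1 were below 1 FPKM in every SSC library and passed the filter through iPSC alone, so their direction was fixed too. Pou5f1 and Klf4 are also in the transgene, whose transcripts cannot be told apart from the endogenous ones here.

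**Figure D5:**
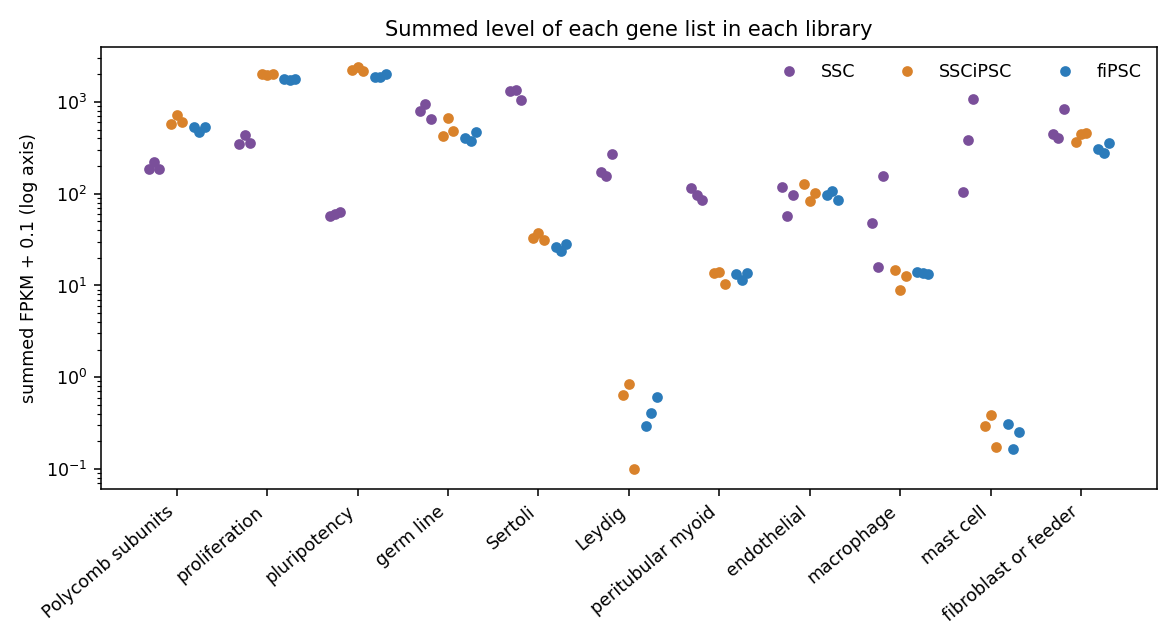
Summed FPKM of each gene list plus 0.1 (log axis) in each library, coloured by group. Polycomb subunits, proliferation and pluripotency genes are higher in all iPSC libraries. Sertoli, Leydig, peritubular myoid, mast cell and, by a small margin, macrophage markers are higher in all SSC libraries. SSC 3 has the highest mast cell, macrophage and fibroblast sums.

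Scaling moved the values by different amounts. Median-ratio scaling raised the median of all loci from 0.11 to 0.29 in SSCiPSC against SSC and from 0.17 to 0.35 in fiPSC against SSC, and that of the 10 genes to 1.80 and 1.57. Under quantile normalization the 10 genes had medians of 1.14 and 1.01, beside 0.05 and 0.04 for all loci. In SSCiPSC against SSC this lowered Rnf2 from 1.33 to 0.68 and Ezh2 from 2.82 to 2.60, left Ezh1 at -0.53 and raised Phf19 from 0.97 to 1.14. Cbx2 and Ezh1 were the genes whose call or sign against SSC depended on scaling.

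Genes with the most similar profile over the 9 libraries were named by the smallest root mean square difference of log2(FPKM + 1) after centring, among 9683 genes. Closest to Suz12 were Dbf4, a regulator of the start of DNA replication (0.06), Ccnc (0.07) and Hspa9 (0.07). Closest to Eed were Actl6a (0.11), Ppat (0.12) and Smarcad1 (0.12), and to Ezh2 Lck (0.13), Csrnp3 (0.15) and Bex1 (0.17). Rnf2 was nearest to Degs1 (0.07), Tmem39a (0.08) and Pnpt1 (0.08), Mtf2 to Wdr12, Nol11 and Mrpl39 (0.09 each), and Jarid2 to Ddx54 (0.08), Ppp4c (0.09) and Rcc2 (0.10). Cbx7 was nearest to Itgbl1, Scp2 and Clns1a (0.15 each), and Phf19 to Gne (0.13), Rabac1 (0.15) and Epcam (0.15).
The pair that did not rise had other neighbours: Hdac11 (0.11), Slc44a2 (0.12) and Casd1 (0.13) for Ezh1, and Fam222a (0.11), Spryd3 (0.13) and Maco1 (0.14) for Cbx2. No member was among the neighbours of another. With most of the variation lying between SSC and iPSC, these values describe the profile over 3 groups.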

How the data were processed

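RNA of 9 libraries was analysed. The authors trimmed, aligned and assembled reads (per the labels' processing notes with Trimmomatic 0.32, TopHat2 2.0.9, Bowtie2 2.1.0, Cufflinks 2.2.1 and Cuffdiff) and deposited 1 FPKM value per locus and library. The notes name the build mm9, but 92.8% of the loci assigned to a strand overlap a protein-coding gene of that strand in GRCm38, against 38.3% and 37.9% after a shift of 1000000 bp, so GRCm38 (GENCODE) names were used. Of 54914 loci, 1 had a blank value and stayed out. A locus took the name of a protein-coding gene that covered at least 50% of it and of which it covered at least 50% of a coding transcript, which named 22764 loci; strand was read from the order of the table. Loci covering several genes stayed unnamed, and 23605 share their interval with another locus. Depth was estimated from the lowest FPKM values of loci of 600 to 6000 bp.

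FPKM are not counts, so limma 3.58.1 (R 4.3.3, eBayes with a trend) was run on log2(FPKM + 1) with the 6 libraries of each pair of groups, keeping loci that reached 1 FPKM in 3 or more of these, with Benjamini-Hochberg adjustment over all loci and a threshold of 0.05. The script was tested on simulated data. Paralogue ratios were compared by exact permutation. Python 3.11.15, numpy 2.4.6, pandas 2.3.3 and matplotlib 3.10.9 were used.

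The members and gene lists were chosen with earlier results of these data known. Named were all 10 members, the 3 largest rises and falls past the threshold of each Polycomb, target and proliferation list in SSCiPSC against SSC (no list gene passed in fiPSC against SSCiPSC), the most abundant gene of each marker list and the 3 genes most like each member. Others, such as Mki67, Kit and the genes whose direction the filter fixed, were named after their values were seen. A gene of the PRC1 list is not reported here and was left out of its counts. Fragments behind a value were estimated from FPKM, depth and the longest coding transcript. The deposited summary of the authors' Cufflinks run was not used.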

Additional observations from a re-analysis of the deposited data

How the results depend on the processing

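Of 537 values of the 10 genes under the alternatives (pseudocount, filter, scaling, locus choice, samples in the fit, replicate block and leaving out a library), 515 kept their direction and side of the threshold, 15 lost the call and 7 turned. Some alternatives, such as the replicate block and all 9 libraries in 1 fit, leave the difference itself unchanged, so its direction could not turn. In fiPSC against SSCiPSC there was no call to lose. The lost calls were those of Phf19 in SSCiPSC and of Cbx2 in both comparisons with SSC. Ezh1 in fiPSC against SSC turned to 0.0957 under median-ratio scaling. In fiPSC against SSCiPSC, where none passed, quantile normalization gave 0.0210 for Jarid2 and 0.0576 for Cbx7, and the sum of all loci of a gene 0.0656 for Cbx7. Leaving out 1 library moved Jarid2 there from -0.3299 to 0.1560, Cbx7 from -0.1149 to 0.0404, and the log2 ratio of Phf19 over Mtf2 in fiPSC against SSC from -0.1254 to 0.4065; with a pseudocount of 0.1 the latter was 0.6847.

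The number of the 10 genes past the threshold was 7 to 9 in SSCiPSC and 8 to 9 in fiPSC against SSC when 1 library was left out. Of all loci, 18396, 19680 and 23 passed in SSCiPSC against SSC, fiPSC against SSC and fiPSC against SSCiPSC. A mean of at least 5 FPKM left 10070, 10528 and 10, 1 locus per named gene 6746, 7013 and 58, and only loci assigned to a strand 9334 and 9758 in the first and second. Fewer loci were tested in these. All 9 libraries in 1 fit gave 11 in the third. Leaving out 1 library gave 11357 to 13901, 11300 to 16585 and 2 to 10.

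Groups share replicate numbers, but same-numbered libraries did not deviate together (r from -0.24 to 0.02 across loci), so the numbers were not taken as pairs. With the replicate block, 9, 8 and 0 of the 10 genes and 16926, 17546 and 6 loci passed. The gene lost under the block was Cbx2 in fiPSC against SSC (adjusted p = 0.084 by limma). Estimated fragments limit Phf19 most.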
